A study of Mus musculus with 19 samples.

Results

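The members described here were 149 microRNA array probes of moderate intensity in mouse hippocampus, taken from the 747 probes of the authors' deposited table. They were chosen by their control values: a probe was a member where its mean over the 4 control arrays of that table was at least 1000 and under 5000 intensity units. Another 104 probes of the table lay at 5000 or over and 494 under 1000. Control levels of the members are therefore a description, with no test. The contrasts with control share the control arrays with the rule, while the differences between treatments use no control array. The spread of the control arrays still enters the SEs and p-values of those contrasts. The series measured small RNA on 19 one-colour arrays in 5 groups, all with right hippocampus RNA from grown C57BL/6 males, and, by its title, looked for miRNAs that respond in common when glycogen synthase kinase 3 (GSK3) is targeted. Control mice (n = 4) were given vehicle through the nose, 5 µL into each nostril on alternate days over 3 days. The siGSK3b mice received 10 µg of an siRNA against GSK3 beta on the same schedule (n = 4), and the L803mts mice received 60 µg of L803mts, a peptide inhibitor of GSK3 (n = 4). For replicate 4 of these groups the sample labels give 11 and 61 µg. The lithium mice (n = 4) ate lithium chow over 4 weeks, of a strength the sample labels put at 0.2% and the treatment protocol at 2%. The ketamine mice (n = 3) had an intraperitoneal dose of 10 mg/kg and were sampled 24 h later. The sample records give 24 h before collection for the other groups as well. Lithium and ketamine had no control of their own route among the samples analysed here. The labels do not say that replicates came from separate mice, so the p-values measure only the spread between these samples, which may be technical.

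MicroRNAs are short RNAs that guide Argonaute proteins to complementary sites in messenger RNAs, which are then repressed or degraded. GSK3 is a serine/threonine kinase whose beta form is abundant in brain. Lithium, a mood stabiliser, inhibits GSK3, and ketamine, an NMDA receptor antagonist with rapid antidepressant action, has been linked to inhibitory phosphorylation of the same kinase. The probes carry vendor codes that neither the files nor the reference tables pair with miRNA names (0 of 149 members matched a reference name). Members are therefore given by code, with no miRNA name, role or sequence. The level of GSK3 beta itself was not analysed here. In tissue RNA, fewer cells of a type and less RNA per cell cannot be told apart.

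All 149 members were above background on all 19 arrays, and none of their spots was saturated or marked as not found by the scanner software. Their brightest spot read 16755 and the median ratio of foreground to local background over member spots ran from 18.7 to 31.1 per array. Spots marked bad numbered 1 in lithium replicate 2 and 6 in ketamine replicate 1. In the authors' table the members held 17.7 ± 0.228% of the summed intensity in control, 17.99 ± 0.378% in siGSK3b, 17.95 ± 0.374% in L803mts and 17.9 ± 0.313% in lithium (SD, n = 4 each). In ketamine they held 17.7 ± 0.594% (SD, n = 3). The group means of this share thus lay between 17.69% and 17.99%, and the single arrays between 17.01% and 18.41%. Every slide held arrays of 1 group only, and L803mts alone was spread over more than 1 slide, with its replicate 2 on a slide scanned later. The 4 control arrays shared 1 slide. Group and slide therefore cannot be told apart in any of the comparisons, those with control included.

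Of the 149 members, 81 carried number codes (54.4%), against 25.5% of the 3421 probes tested on the arrays, 67 carried ORB codes and 1 an IGN code. Number codes made up 78.8% of the table's brighter probes and 26.1% of its dimmer ones. The 3 members just inside the lower bound were 1287 (control mean 1007.5 ± 374 intensity units), ORB_1210156 (1011 ± 578) and ORB_0908032 (1023 ± 114; SD, n = 4 each). Just outside it were ORB_1008008 at 977, 3273 at 993.75 and 2319 at 997.75. At the upper bound, ORB_1210550 (4810), 1315 (4875) and 2237 (4878.25) lay inside and 1851 (5004.25), 1416 (5104.25) and 2187 (5111.5) outside. For 122 members all 4 control arrays lay within the bounds. By their group means, 141 members were within the bounds in siGSK3b, 141 in L803mts, 143 in lithium and 138 in ketamine. Members chosen by the mean over all 19 arrays would have numbered 155, of which 146 were the same probes.

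The pooled SD within groups on the normalized log2 scale had a median of 0.15 over members, against 0.15 over the table's brighter probes, 0.14 over its dimmer ones and 0.11 over all 3421 tested probes. It ran from 0.08 in ORB_1210387 to 1.69 in IGN_orb_0408010. ORB_1210387, 1389 and ORB_0608066 (0.08 each) had the lowest values. IGN_orb_0408010, 3001 (0.74) and 2955 (0.70) had the highest. Of the members, 7 exceeded 0.5 (4.7%), against 43 of all probes (1.26%), and none of the 7 passed the threshold in any comparison described here. The share above 0.5 was 3.85% over the table's brighter probes and 1.42% over its dimmer ones. The distance between the highest and the lowest of the 5 group means had a median of 0.27 over members and 0.16 over all probes. Its median was 0.25 over the brighter probes and 0.19 over the dimmer ones.

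Each treatment was set against control, and treatments against each other, in limma over all 3421 probes and all 19 arrays. P-values were adjusted by the Benjamini-Hochberg method over all of them, with a threshold of 0.05. The 4 comparisons with control share the control arrays, so their values stand side by side and are not independent. In siGSK3b the median member lay 0.06 log2 units below control (all probes 0.00 below), with 55 of 149 members above control (36.9%). Of all probes 47.6% lay above control there, of the table's brighter probes 38.5% and of its dimmer ones 48.8%. In lithium the median member lay 0.06 above (all probes 0.01), with 89 of 149 above (59.7%). Here the shares were 53.1% of all probes, 45.2% of the brighter ones and 60.5% of the dimmer ones. The medians of L803mts (0.02) and ketamine (0.02) were nearer to 0. The differences between quartiles were wider for members than for all probes, most of which are dimmer, and nearer to those of the table's brighter probes. In siGSK3b the quartiles of the members' differences were -0.18 and 0.09, against -0.07 and 0.05 over all probes. The members' quartiles were -0.10 and 0.16 in L803mts, -0.06 and 0.16 in lithium and -0.14 and 0.19 in ketamine, where those of all probes were -0.07 and 0.08, -0.06 and 0.08, and -0.07 and 0.08. Over the brighter probes of the table the quartiles were -0.17 and 0.10 in siGSK3b, -0.14 and 0.16 in L803mts, -0.13 and 0.13 in lithium and -0.15 and 0.11 in ketamine. The medians moved with the scaling of the arrays. When each array was scaled to the same median, the siGSK3b median was -0.14, the L803mts median turned to -0.07, the lithium median was 0.00 and the ketamine median turned to -0.19. Under cyclic loess, another scaling of the arrays, the medians were -0.006 in siGSK3b, 0.02 in L803mts, 0.03 in lithium and 0.02 in ketamine. The group with the lowest mean was siGSK3b for 47 members (31.5%, against 19.5% of all probes) and lithium for 13 (8.72%, against 16.1%).

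No member passed the threshold between siGSK3b and control by limma (0 of 149), in a comparison in which 4 of 3421 probes did (0.117%; 0.117% higher and 0% lower). An unadjusted p under 0.05 was found for 32 members (21.5%), against 11.5% of all probes. The arrays of siGSK3b lay wholly above those of control for 3 members (2.01%, all probes 2.48%) and wholly below for 9 (6.04%, all probes 3.71%). Over the table's brighter probes the share with an unadjusted p under 0.05 was 29.8%, and over its dimmer ones 12.3%. Wholly above control lay 3.85% of the brighter probes and wholly below 4.81%. Among members with the lowest p, ORB_0511548 read 11.24, 11.19, 10.88 and 11.11 on the normalized log2 scale in control and 10.29, 10.52, 10.50 and 10.49 in siGSK3b. These groups did not overlap. Its difference was -0.65 (SE 0.16, adjusted p = 0.133).

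ORB_1112137 read 11.62, 11.86, 11.72 and 11.80 in control and 11.64, 11.12, 11.18 and 11.14 in siGSK3b. Replicate 1 of siGSK3b lay within the control range and the other 3 arrays below it. The difference was -0.48 (SE 0.12, adjusted p = 0.133), and without that array the adjusted p was 0.046. In the other direction, 2955 had a difference of 1.52 (SE 0.46, adjusted p = 0.199) and ORB_1210156 one of 1.22 (SE 0.35, adjusted p = 0.165), with overlapping arrays in both. Leaving out 1 array at a time gave 0 to 4 members past the threshold, with 4 without control replicate 1 and 1 without siGSK3b replicate 1. A fit on control and siGSK3b arrays alone gave 1.

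Between L803mts and control 7 members passed the threshold (4.7%), against 85 of all probes (2.48%). Of these, 2 were higher (1.34%, all probes 0.614%) and 5 lower (3.36%, all probes 1.87%). Before adjustment, 36 members had a p under 0.05 (24.2%), against 15.4% of all probes. The L803mts arrays lay wholly above control for 3 members (2.01%, all probes 3.01%) and wholly below for 7 (4.7%, all probes 4.44%). Among the table's brighter probes 2.88% passed the threshold and 27.9% had an unadjusted p under 0.05 (dimmer ones 1.42% and 14%). Wholly above control lay 1.92% of the brighter probes and wholly below 3.85%.

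ORB_0511548 read 10.05, 10.17, 10.39 and 10.43 in L803mts, and each of these lay below all control arrays. It fell by 0.84 log2 units, to 55.75% of control (SE 0.16, adjusted p = 0.00907). ORB_0409040 read 10.92, 10.93, 11.15 and 10.99 in control and 10.46, 9.62, 10.32 and 10.40 in L803mts. The groups did not overlap, and replicate 2, on the later slide, was the lowest of all 19 arrays. ORB_0409040 fell by 0.80 (SE 0.13, adjusted p = 0.00374), to 57.55% of control. 1852 read 11.18, 10.84, 10.83 and 10.55 in control and 10.32, 9.64, 10.23 and 10.29 in L803mts, again without overlap and with replicate 2 lowest. 1852 fell by 0.73 (SE 0.14, adjusted p = 0.00887), to 60.37% of control. Without that replicate and without each other array in turn, these 3 members stayed past the threshold, with adjusted p-values of at most 0.0372, 0.0134 and 0.0323.

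Among smaller falls, ORB_1112077 went from 12.21 ± 0.10 to 11.72 ± 0.07 (SD, n = 4 each) without overlap, a difference of -0.48 (SE 0.12, adjusted p = 0.0431). ORB1217 went from 10.39 ± 0.16 to 10.06 ± 0.11 (SD, n = 4 each) with overlap, a difference of -0.33 (SE 0.08, adjusted p = 0.0435). There were 2 rises. 1423 rose by 0.49 (SE 0.11, adjusted p = 0.0277). 2181 rose by 0.27 (SE 0.07, adjusted p = 0.0392). 1423 read 12.45, 12.22, 11.97 and 12.04 in control and 12.89, 12.79, 12.44 and 12.54 in L803mts. Its groups touched, since control replicate 1 lay above L803mts replicate 3. 2181 read 10.32, 10.18, 10.22 and 10.30 in control and 10.61, 10.57, 10.40 and 10.53 in L803mts, without overlap.

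Each of these 4 calls was lost in fits that left out 1 array. Without 1 array, the adjusted p of ORB_1112077 lay between 0.0548 and 0.121 in all 8 fits. ORB1217 stayed past the threshold only without control replicate 1 or L803mts replicate 4, 2181 only without control replicate 1 or L803mts replicate 3, and 1423 only without control replicate 1, L803mts replicate 3 or L803mts replicate 4. Their adjusted p-values then reached 0.14, 0.121 and 0.0923. Instead of 7 members, 10 passed when control replicate 1 was left out and 3 when control replicate 2 or 3 was. Leaving out control replicate 4 or L803mts replicate 1 or 2 gave 4, and leaving out L803mts replicate 4 gave 5. With each array scaled to the same median, 0 were higher and 5 lower, and on the authors' values 0 were higher and 4 lower.

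Between lithium and control 9 members passed the threshold (6.04%), against 80 of all probes (2.34%). Here most were higher: 7 rose (4.7%, all probes 1.02%) and 2 fell (1.34%, all probes 1.32%). Without adjustment, p was under 0.05 for 38 members (25.5%), against 13.7% of all probes. The lithium arrays lay wholly above control for 17 members (11.4%, all probes 4.56%) and wholly below for 3 (2.01%, all probes 4.12%). Among the table's brighter probes 1.92% passed the threshold and 24% had an unadjusted p under 0.05 (dimmer ones 1.42% and 13%). Wholly above control lay 10.6% of the brighter probes and wholly below 1.92%.

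2181 read 10.65, 10.45, 10.72 and 10.58 in lithium, each above all control arrays. It rose by 0.35 (SE 0.07, adjusted p = 0.00939), to 127.2% of control, and stayed past the threshold when any 1 array was left out (adjusted p at most 0.0394). With not-found spots left out across all probes, though, its difference was 0.07 (adjusted p = 0.785). 3219 read 10.12, 10.32, 10.23 and 10.34 in control and 10.50, 10.58, 10.75 and 10.55 in lithium, without overlap. It rose by 0.35 (SE 0.08, adjusted p = 0.0227). 1423 read 12.84, 12.47, 12.59 and 12.63 in lithium, above all control arrays, and rose by 0.46 (SE 0.11, adjusted p = 0.0409). ORB_1210646 went from 11.20 ± 0.20 to 11.65 ± 0.19, a rise of 0.45 (SE 0.11, adjusted p = 0.0488), and 1179 from 11.10 ± 0.07 to 11.43 ± 0.05, a rise of 0.33 (SE 0.08, adjusted p = 0.0409; SD, n = 4 each). The arrays of both groups lay apart for each of these members. With not-found spots left out, the other 4 of these rises were also smaller, at 0.07 for 3219, 0.26 for 1423, 0.24 for ORB_1210646 and 0.13 for 1179, and none passed. The remaining 2 rises, outside the rule for named members, were ORB_1210582 by 0.31 (adjusted p = 0.0230) and 1305 by 0.26 (adjusted p = 0.039).

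The 2 falls in lithium were in 1852 and ORB_0409040. 1852 read 10.26, 10.22, 10.02 and 10.36 in lithium, all below control, and fell by 0.64 (SE 0.14, adjusted p = 0.0199), to 64.39% of control. ORB_0409040 read 10.52, 10.38, 10.40 and 10.33, all below control, and fell by 0.59 (SE 0.13, adjusted p = 0.0265), to 66.39% of control.

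Of the 7 named lithium calls, those other than 2181 were lost in fits that left out 1 array. 1852 lost its call when replicate 1 or 2 of control or replicate 2 or 3 of lithium was left out, and 3219 when replicate 1 or 3 of control or replicate 2 or 3 of lithium was, with adjusted p up to 0.0763 and 0.0796. ORB_0409040 was past it only without control replicate 1 or lithium replicate 1, and 1423 and ORB_1210646 only without control replicate 1 or lithium replicate 2, with adjusted p up to 0.0754, 0.133 and 0.157. For 1179 none of the 8 fits with 1 array left out passed (adjusted p 0.0696 to 0.126). Instead of 9 members, 2 passed when control replicate 2 or 3 was left out and 3 when control replicate 4 was. Leaving out lithium replicate 1, 2 or 4 gave 4, and leaving out lithium replicate 3 gave 1. With each array scaled to the same median the count was 0, and on the authors' values 1 member was higher and 2 were lower.

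Between ketamine and control 7 members passed the threshold (4.7%), against 116 of all probes (3.39%). Of these 4 were higher (2.68%, all probes 1.34%) and 3 lower (2.01%, all probes 2.05%). At an unadjusted p under 0.05 there were 42 members (28.2%), against 14.1% of all probes. The ketamine arrays lay wholly above control for 16 members (10.7%, all probes 6.99%) and wholly below for 13 (8.72%, all probes 6.61%). Among the table's brighter probes 4.81% passed the threshold and 24% had an unadjusted p under 0.05 (dimmer ones 2.02% and 16.4%). Wholly above control lay 3.85% of the brighter probes and wholly below 5.77%.

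ORB_1112137 read 11.14, 11.19 and 11.04 in ketamine, each below all 4 control arrays. It fell by 0.63 (SE 0.13, adjusted p = 0.00846), to 64.62% of control, and was past the threshold under each of the 18 alternatives run for it (adjusted p at most 0.0495). ORB_0409040 read 10.32, 10.31 and 10.52 in ketamine, again below all control arrays, and fell by 0.62 (SE 0.15, adjusted p = 0.0255). ORB_0908037 read 11.35, 11.63, 11.70 and 11.60 in control and 10.98, 11.22 and 11.23 in ketamine, without overlap. It fell by 0.43 (SE 0.09, adjusted p = 0.0151), to 74.46% of control.

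The 4 rises in ketamine ran from 0.26 to 0.37 log2 units, and in each the ketamine arrays lay above all control arrays. 3096 went from 10.33 ± 0.08 (SD, n = 4) to 10.70 ± 0.15 (SD, n = 3), a rise of 0.37 (SE 0.09, adjusted p = 0.0255). 3116 went from 11.26 ± 0.10 to 11.62 ± 0.08, a rise of 0.36 (SE 0.10, adjusted p = 0.0491). ORB_0511552 rose by 0.32 (SE 0.08, adjusted p = 0.0255), from 12.21 ± 0.10 to 12.53 ± 0.11. 1389, whose spread within groups was among the lowest of the members, read 12.14, 11.99, 12.05 and 12.01 in control and 12.32, 12.24 and 12.38 in ketamine. It rose by 0.26 (SE 0.06, adjusted p = 0.0265). The size of these rises depended on the scaling of the arrays: with each array scaled to the same median they were 0.18 for 3096, 0.15 for 3116, 0.10 for ORB_0511552 and 0.05 for 1389, and none passed.

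The call of ORB_0908037 was lost without control replicate 2 (adjusted p = 0.0508) or ketamine replicate 1 (0.0979), and that of ORB_0409040 without control replicate 3 or 4 or ketamine replicate 1 or 2 (up to 0.109). 3096 was lost without control replicate 1 or 4 or ketamine replicate 1 or 3 (up to 0.126). 1389 and ORB_0511552 were past the threshold only without control replicate 1 or ketamine replicate 2, and 3116 only without control replicate 1, with adjusted p up to 0.119, 0.129 and 0.186. Instead of 7 members, 14 passed when control replicate 1 was left out and 3 when control replicate 2, 3 or 4 or ketamine replicate 3 was, while leaving out ketamine replicate 1 gave 1. With each array scaled to the same median, and likewise on the authors' values, 0 members were higher and 3 lower.

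In all, 18 members passed the threshold against control in at least 1 treatment (12.1%), against 173 of all probes (5.06%). The share was 6.73% over the table's brighter probes and 3.64% over its dimmer ones. Side by side, with the control arrays shared by all 4 comparisons, the differences of ORB_0409040 from control were -0.39 in siGSK3b (adjusted p = 0.234), -0.80 in L803mts, -0.59 in lithium and -0.62 in ketamine, the last 3 past the threshold. Each of its 15 treated arrays lay below each control array, with 10.51, 10.69, 10.70 and 10.53 in siGSK3b. The differences of 1852 were -0.26 in siGSK3b (adjusted p = 0.509), -0.73 in L803mts, -0.64 in lithium and -0.55 in ketamine (adjusted p = 0.0527), with L803mts and lithium past the threshold. The differences of 2181 were 0.02 in siGSK3b (adjusted p = 0.966), 0.27 in L803mts, 0.35 in lithium and -0.01 in ketamine (adjusted p = 0.981). At the array positions that both groups of a comparison held on their slides, every call had the same sign at each position.

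The differences between treatments take no control array, so the levels that chose the members do not enter them. The spread within control is part of the pooled spread, and so enters their SEs and p-values. Between L803mts and siGSK3b, given by the same route, 0 of 149 members passed the threshold and 0 of all 3421 probes (0%; 0% higher and 0% lower) by limma. At an unadjusted p under 0.05 there were 24 members (16.1%), against 8.68% of all probes and 7.69% of the table's brighter ones. The L803mts arrays lay wholly above those of siGSK3b for 9 members (6.04%, all probes 2.1%) and wholly below for 2 (1.34%, all probes 1.87%). The median member was 0.07 log2 units higher in L803mts (all probes 0.01), and 102 of 149 were above 0 (68.5%). Of all probes 53% were above 0, and of the table's brighter probes 61.5%. This median was 0.05 with each array scaled to the same median and 0.004 under cyclic loess. It was 0.03 on the authors' values and -0.01 with not-found spots left out. No member passed when any 1 array was left out.

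An F test over the 4 treatments asked whether any of them differed. It passed for 2 members (1.34%), against 9 of all probes (0.263%), and at an unadjusted p under 0.05 for 37 (24.8%), against 15% of all probes. Among the table's brighter probes 0% passed and 19.2% had an unadjusted p under 0.05. The 2 members that passed were ORB_1112136 (adjusted p = 0.0273) and 2181 (adjusted p = 0.0429), while 1970 had an adjusted p of 0.0661. The count was 8 without L803mts replicate 2, 4 without L803mts replicate 1 or lithium replicate 4, 1 without siGSK3b replicate 2 or lithium replicate 3, and 0 without siGSK3b replicate 4, lithium replicate 1, ketamine replicate 1 or ketamine replicate 2.

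ORB_1112136 read 11.56, 11.49 and 11.34 in ketamine, 12.37, 12.04, 12.43 and 12.12 in lithium, and 12.28, 12.04, 11.82 and 12.03 in L803mts. All 3 ketamine arrays lay below every other array of the series, siGSK3b (11.86 ± 0.13) and control (11.87 ± 0.14; SD, n = 4 each) included. It was lower in ketamine than in lithium by 0.77 (SE 0.11, adjusted p = 0.0111), at 58.48% of the lithium level. Against L803mts the difference was -0.58 (SE 0.11, adjusted p = 0.0315), and against control -0.41 (adjusted p = 0.0618).

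1970 read 10.96, 11.09 and 10.93 in ketamine, 11.86, 11.68, 11.98 and 11.54 in lithium, and 11.80, 11.91, 11.21 and 11.59 in L803mts. Here too the ketamine arrays lay below every other array. Its difference against lithium was -0.77 (SE 0.14, adjusted p = 0.0386), and against L803mts it was -0.64 (SE 0.14, adjusted p = 0.0427). Across the 19 arrays ORB_1112136 and 1970, from different print blocks, had a correlation of 0.931, and of 0.797 after the group means were taken out. The points of this correlation share array, normalization and groups.

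Between ketamine and L803mts 4 members passed the threshold (2.68%), against 44 of all probes (1.29%), with 2 higher (1.34%, all probes 0.994%) and 2 lower (1.34%, all probes 0.292%). Before adjustment, 31 members had a p under 0.05 (20.8%, all probes 13.7%). Ketamine lay wholly above L803mts for 8 members (5.37%, all probes 5.88%) and wholly below for 8 (5.37%, all probes 4.82%). Among the table's brighter probes 1.92% passed the threshold and 15.4% had an unadjusted p under 0.05. ORB_1112077 was higher in ketamine by 0.60 (SE 0.13, adjusted p = 0.0427). 1389 was higher by 0.28 (SE 0.06, adjusted p = 0.0427). ORB_1112077 read 12.59, 12.36 and 12.02 in ketamine, above all L803mts arrays (11.74, 11.80, 11.63 and 11.72). The count was 0 without L803mts replicate 1, ketamine replicate 1 or ketamine replicate 2, 1 without L803mts replicate 4 and 2 without ketamine replicate 3, and it was 0 with each array scaled to the same median.

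Between ketamine and lithium 4 members passed the threshold (2.68%), against 20 of all probes (0.585%), with 0 higher (all probes 0.0877%) and 4 lower (2.68%, all probes 0.497%). At an unadjusted p under 0.05 there were 30 members (20.1%, all probes 9.91%). Ketamine lay wholly above lithium for 5 members (3.36%, all probes 4.24%) and wholly below for 23 (15.4%, all probes 6.78%). Among the table's brighter probes 2.88% passed the threshold and 15.4% had an unadjusted p under 0.05. Wholly below lithium lay 10.6% of the brighter probes and wholly above 3.85%. Besides ORB_1112136 and 1970, both 3295 and 2181 were lower, with differences of -0.38 (SE 0.08, adjusted p = 0.0468) and -0.36 (SE 0.07, adjusted p = 0.0429). 2181 read 10.22, 10.14 and 10.36 in ketamine, below all lithium arrays. The call of ORB_1112136 was lost without lithium replicate 3 (adjusted p = 0.0547) or ketamine replicate 2 (0.0869). The other 3 were lost in 4 to 7 of the 7 fits with 1 array left out. The count was 0 without lithium replicate 3 or ketamine replicate 2, 1 without lithium replicate 1 or ketamine replicate 1 and 2 without ketamine replicate 3, and it was 0 with each array scaled to the same median.

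Likeness over the 5 group means was taken for 2181, which like ORB_0409040 passed the threshold in 3 comparisons, more than any other member, and had the lower p of these in the F test. The members most like it were 1929 (correlation 0.978), 1423 (0.974) and 3294 (0.962), each over 5 group means that share their arrays. The means of 1929 were 11.55 in control, 11.60 in siGSK3b, 11.78 in L803mts, 11.77 in lithium and 11.53 in ketamine. 1929 and 3294 passed the threshold in no comparison with control.

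The members with the widest spread fell into 2 sets whose members varied together from array to array. These sets were chosen after their values were seen and are described without a test. Of the 7 members with an SD above 0.5, 6 are in these sets and the remaining one is 1287, which ran from 520 to 1656 intensity units. The first is IGN_orb_0408010 with ORB_1210454 and ORB1143, which lie in print blocks 7, 3 and 6. In the authors' table the control arrays of IGN_orb_0408010 read 8557, 745, 202 and 204, and its siGSK3b arrays 7085, 9900, 5082 and 11391. Its L803mts arrays read 4798, 8453, 6954 and 190, its lithium arrays 166, 234, 316 and 193, and its ketamine arrays 5977, 6125 and 879. The probe was above 4000 on 10 arrays, under 1000 on 9 and between these on 0, so that its control mean of 2427 described none of the control arrays. High and low arrays occurred within control, L803mts and ketamine, while all siGSK3b arrays were high and all lithium arrays low.

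Its 3 spots per array gave like readings, for example 10663, 10866 and 11241 in control replicate 1 and 168, 183 and 194 in control replicate 3. Across the 19 arrays its log2 values had a correlation of 0.956 with ORB_1210454 and of 0.920 with ORB1143, and within groups of 0.915 and 0.934. ORB_1210454 ran from 725 to 3842 and ORB1143 from 674 to 3228. Over all tested probes, 17 had a correlation above 0.9 with IGN_orb_0408010, of which 2 were members, 3 brighter probes of the table, 8 dimmer ones and 4 outside it. None of the 3 members passed the threshold in any comparison, and the difference of IGN_orb_0408010 from control was 3.27 in siGSK3b (adjusted p = 0.229) and -1.53 in lithium (adjusted p = 0.628).

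The second set is 2955 with 3001 and ORB_1210156, all in print block 5. In the same units, the control arrays of 2955 read 1724, 1487, 2194 and 6508, and its siGSK3b arrays 5749, 7258, 14842 and 3504. Its L803mts arrays read 3684, 6025, 7784 and 4598, its lithium arrays 5734, 2824, 1732 and 2114, and its ketamine arrays 4097, 4585 and 3571. Control replicate 4 was the high array of control, lithium replicate 1 that of lithium and siGSK3b replicate 3 that of siGSK3b. 3001 ran from 450 to 5744 and had a correlation of 0.992 with 2955. ORB_1210156 ran from 650 to 4750, with a correlation of 0.948. Of the 17 probes with a correlation above 0.9 with 2955, 5 lay in its print block and 14 were outside the table. The sets did not move together: IGN_orb_0408010 and 2955 had a correlation of 0.382 over the 19 arrays and of -0.179 within groups.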

How the data were processed

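Small RNA was measured on 19 one-colour miRNA arrays. Per the file headers, the deposited scanner files hold GenePix intensities of 1 channel with a local background per spot and no normalization. The authors' table of 747 probes also holds intensities on a linear scale, and how they were normalized is not stated in the material used here. Its 4778 cells with a decimal point were multiplied by 1000, after which each column's correlation with the background-subtracted scanner intensities of its array was at least 0.99996. Whether a centring step entered that table is unknown.

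Each sample's 8 blocks, named in its label, were read in R 4.3.3 with the package data.table (version 1.17.8). Foreground and background medians went through normexp with an offset of 50, log2, averaging of the 3 spots per probe and quantile normalization in limma 3.58.1. The 40 control spots per array and spots marked bad were left out. Of 3432 probes, 3421 were tested, being more than 2 background SDs above background on at least 3 arrays. The files give no background SD per spot, so it came from the median absolute deviation of each array's local backgrounds, a change from the per-spot value first planned. One fit over all 19 arrays gave the group means, with lmFit and eBayes, and two-sided p-values were adjusted by the Benjamini-Hochberg method over all tested probes. The steps were run on simulated data with independent noise and no slide effect. That run cannot show how slide bears on the calls. The number of arrays limits the precision of each value.

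The members, the lists and the rule for named probes were chosen with earlier results of these data known. The rule took, per comparison with control, the 5 members with the largest called rise and the 5 with the largest called fall, provided each treated array differed from the control mean in that direction, or without any the 2 lowest p-values in each direction. It also took the 3 largest called differences in each direction between treatments, the 3 lowest p-values of the F test, every member past the threshold the same way in 3 or more comparisons with control, the 3 probes on either side of each bound, the members with the highest and lowest control mean, the 3 highest and 3 lowest SDs within groups and the 3 most like the most often called member. Further members are named where a count or a described set needed it. Alternatives changed the normalization, background, filter, value table, spot marks, blocks, arrays in the fit and membership.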

Additional observations from a re-analysis of the deposited data

Results flagged for a closer look

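In 124 groups of 4 arrays, the gap between the most distant array and its nearest neighbour, relative to the whole range, was checked for the named members and for summary values. It was past the 95% limit in 13 groups. Chance gives about 1 in 20, or 6.2 of 124. ORB_0409040 read 9.62 in L803mts replicate 2, against 10.32 to 10.46 in the other 3 arrays. 1852 read 9.64 in the same array, against 10.23 to 10.32. Both are members that fell in L803mts, and that array was on the later slide. ORB_1112137 read 11.64 in siGSK3b replicate 1, against 11.12 to 11.18, and 11.96 in L803mts replicate 1, against 11.46 to 11.50. IGN_orb_0408010 read 8.00 in L803mts replicate 4, against 12.27 to 13.07, and 1287 read 10.73 in siGSK3b replicate 4, against 9.13 to 9.38. ORB_0511548 read 10.29 in siGSK3b replicate 1, against 10.49 to 10.52. In lithium replicate 4, ORB_1112077 read 12.42, against 11.85 to 11.94, and 3116 read 11.74, against 11.43 to 11.48. 3295 read 11.15 in control replicate 1, against 11.30 to 11.32. 1389 read 12.27 in lithium replicate 2, against 12.26 in each of the other 3 arrays, so that this gap is small in absolute size. The median log2 value of the members was 11.12 in L803mts replicate 1, against 11.15 in the others. The members' share of the intensity of the authors' table was 18.4% in lithium replicate 1, against 17.7 to 17.8%.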

How the results depend on the processing

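Of 29 calls of named members, 5 held in every fit with 1 array left out and 1, ORB_1112137 in ketamine, held under every alternative run for it; 21 were lost under median scaling, 22 with plain subtraction, 14 in the authors' table and 26 with not-found spots left out, and the direction of 0 was reversed. The last setting tested 1701 probes and left out no member spot, yet the normalized values of members changed. The median of all probes against control was then -0.15 in lithium and -0.13 in ketamine. Counts of members follow in the order L803mts, lithium and ketamine against control, ketamine against L803mts, ketamine against lithium and F test, where the reported counts are 7, 9, 7, 4, 4 and 2. They were 5, 0, 3, 0, 0 and 0 under median scaling, 9, 5, 10, 4, 3 and 1 under cyclic loess, 3, 1, 2, 0, 1 and 1 with plain subtraction, 4, 3, 3, 4, 2 and 2 in the authors' table, and 0, 2, 3, 3, 0 and 1 with not-found spots left out. With the replicate block they were 7, 8, 7, 5, 2 and 2, with array position as a block 4, 5, 6, 2, 4 and 1, and with slide as a random block 5, 5, 6, 1, 1 and 1. The slide block cannot take slide out of a comparison, since L803mts alone was spread over more than 1 slide. Fits on the compared groups alone gave 2, 5, 3, 0, 0 and 2. Members chosen by all 19 arrays gave 6, 8, 7, 4, 5 and 2. With print-block medians centred, a setting chosen after seeing the data, they were 7, 6, 7, 6, 7 and 6. The filter changed no count. Against control, siGSK3b had 0 under each of these settings except 1 on the compared groups alone, and L803mts against siGSK3b had 0 under all. Higher and lower counts, 2 and 5 in L803mts, 7 and 2 in lithium and 4 and 3 in ketamine as reported, were 0 and 3 in L803mts, 1 and 0 in lithium and 0 and 2 in ketamine with plain subtraction, 0 and 2 in lithium and 0 and 3 in ketamine with not-found spots left out, and 3 and 2 in lithium under cyclic loess or with slide as a random block. Leaving out 1 array gave 0 to 4 for siGSK3b against control, 3 to 10 for L803mts, 1 to 8 for lithium, 1 to 14 for ketamine, 0 to 5 for ketamine against L803mts, 0 to 4 for ketamine against lithium and 0 to 8 in the F test. The cause of these changes was not tested. Replicate numbers showed no pairing of the samples. Deviations were correlated above 0.1 in 10 of 36 same-number pairs and in 31 of 108 different-number pairs. The median correlations were -0.02 and -0.01. The median of the members kept its sign in siGSK3b under all scalings, but under cyclic loess it was only -0.006 (all probes -0.001). In L803mts and ketamine it turned negative under median scaling and in the authors' table. With not-found spots left out it was -0.03 in siGSK3b and turned to -0.03 in L803mts, -0.18 in lithium and -0.19 in ketamine.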

Other observations

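Members past the threshold against control were spread unevenly over the 8 print blocks of the array. Of 18 such members, 9 lay in block 2 (which held 23 members), 5 in block 3 (29 members), 2 in block 1 (21 members) and 2 in block 6 (16 members), with 0 in the other 4 blocks. This was seen in the data and not tested. The print blocks of all 173 probes past the threshold against control are not given here. Whether the unevenness is particular to the members therefore cannot be told.

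Among the 11026 pairs of members, 11 pairs had log2 values with a correlation above 0.9 over the 19 arrays, all of which share their normalization and groups. They joined 16 members, and in 5 of the 11 pairs both members lay in the same print block. Besides the pairs given in the report, these were 2866 with ORB1079 (0.963, and 0.969 within groups), 1498 with 2340 (0.939 and 0.96), ORB_0608044 with ORB_1210286 (0.932 and 0.894) and 1082_3 with ORB_1112287 (0.905 and 0.911). As intensity units, 1498 ran from 1550 in L803mts replicate 1 to 3885 in ketamine replicate 1, and 2340 from 1366 in siGSK3b replicate 3 to 3585 in ketamine replicate 1. 2866 ran from 1589 to 3057 and ORB1079 from 1584 to 3127.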
